A study of Danio rerio with 15 samples.

Results

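Loss of tet3 was examined in neutrophils sorted from zebrafish embryos at 2 days post fertilization (dpf), with tet2 genotype held constant. The comparison uses 12 of the 15 libraries of the series and takes all libraries at 2 dpf. 6 of them lack tet3: 3 from tet3 mutants, whose genotype is given as tet3-/-, and 3 from double mutants, given as tet2/3DM. 6 of them keep tet3: 3 from tet2 mutants, given as tet2-/-, and 3 from wildtype embryos. The 3 remaining libraries, from wildtype embryos at 1.5 dpf, stayed out of the main fits and are given as side values for some genes and sums. Neutrophils of every group were sorted on mpx:GFP, a reporter in which the promoter of the myeloperoxidase gene drives green fluorescent protein, so the sorted cells are those in which that promoter is active. The labels name no allele of either gene and do not say how many embryos gave a library, or whether replicate libraries are separate clutches or separate sorts. The p-values below therefore reflect the scatter among these libraries, and that scatter may be technical.

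Tet enzymes are dioxygenases that oxidise 5-methylcytosine, a step on the way to loss of DNA methylation at enhancers and promoters. tet2 and tet3 overlap in function in zebrafish blood stem cell formation, and both are expressed in blood. Neutrophils are short-lived phagocytes that carry granule enzymes, respond to cytokines through Jak kinases and Stat factors, and switch on inflammatory genes and stress genes quickly.

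Values below are normalised read counts, that is, reads per gene scaled by 1 size factor per library. Differences are log2 differences between libraries without and with tet3, adjusted for tet2 genotype, from limma on log2(value + 1). This scale understates the change of low genes. A gene is said to have risen or fallen where its Benjamini-Hochberg adjusted p is under 0.05 over 15932 genes. Levels of different genes are not compared, since values are not corrected for gene length.

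The libraries held 5.64, 5.96 and 13.65 M (mega) reads in tet3 mutants and 27.19 to 31.06 M in double mutants, against 13.29 to 13.8 M in tet2 mutants and 12.18 to 14.84 M in wildtype. The 2 shallow tet3 libraries differed from each other by 3.98 times sampling noise, and the other pairs within a group at 2 dpf by 8.56 to 284.48 times. This ratio grows with depth, so it does not rank pairs by closeness. The log2 values of the 2 shallow libraries correlated at 0.942, against 0.941 and 0.942 for the other tet3 pairs. Counting noise at low depth lowers this correlation, so it does not rank them either. The summed level of epidermis markers was 54290 and 55050 in the 2 shallow libraries and 69750 in tet3 mutant 3. That of endothelial markers was 8522, 8658 and 6293. Heart markers (303.8, 270.8 and 304) and neural markers (3704, 3626 and 3629) did not set tet3 mutant 3 apart. Whether the 2 shallow libraries are separate preparations is not given. Pairs correlated at 0.957 to 0.968 in wildtype, 0.881 to 0.944 in double mutants and 0.885 to 0.941 in tet2 mutants. The summed level of 11 neutrophil markers ran from 161400 to 246200 without tet3 and from 139900 to 353800 with tet3. None of these markers was at 0 in any library. 1 of the 11, mmp9, rose and none fell, against 6.79% and 6.95% of all genes. The sorted cells also held transcripts of other cell types, and values for those types are given beside the results they touch. In bulk RNA, fewer cells of a type and less RNA per cell cannot be told apart.

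The targeted gene was measured first. tet3 (ENSDARG00000062646) had 2208, 2237 and 1532 in tet3 mutants and 1772, 3062 and 2138 in double mutants, against 2101, 1432 and 1457 in tet2 mutants and 1166, 1335 and 1620 in wildtype. The transcript was thus not reduced in libraries without tet3, and the groups overlapped (log2 difference 0.50, SE 0.16, limma adjusted p = 0.058). It passed in 7 of 28 alternative settings, and its difference ran from 0.369 to 0.996 over the 28. A count over the whole gene does not show the mutation, so it does not check the labels. tet2 (log2 difference -0.46, adjusted p = 0.26) and tet1 (-0.11, adjusted p = 0.81) did not pass limma's test either. Of 23 genes for DNA methylation enzymes and readers, 2 rose and none fell. The share that rose, 8.7%, was near the 6.79% of all genes tested that rose (6.95% fell), and the median difference was 0.05, against -0.027 over all genes. The 2 that rose were mbd5, a methyl-binding domain gene (log2 difference 0.66, limma adjusted p = 0.029), and ogt.2, a gene for the sugar transferase that binds Tet proteins in mammals (0.46, adjusted p = 0.04). Both calls were lost without any 1 of the 3 tet3 mutants, double mutant 3, tet2 mutant 3 or wildtype 1. That of mbd5 was also lost without double mutant 1, and that of ogt.2 without double mutant 2, wildtype 2 or wildtype 3.

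Among libraries without tet3, 19 of 28 heat-inducible chaperone genes, 12 of 34 muscle genes, 9 of 16 cardiac genes and 10 of 33 immediate early genes fell, and 9 of 24 pigment cell and neural crest genes rose. Across the transcriptome 2189 genes passed limma's test, or 13.7% of genes tested. 1081 rose, or 6.79%, and 1108 fell, or 6.95%. 1035 of them differed by more than 2-fold, and beyond 4-fold 92 were higher and 223 lower. In 700 genes, or 4.39% of those tested, the 6 libraries without tet3 did not overlap the 6 with it, and 653 of these also passed the test. With the 2 shallow tet3 libraries left out, 812 genes passed, 37.8% of them higher in place of 49.4%. That fit holds 1 tet3 mutant, which is assumed to vary like the other groups, so a call it loses is no sign of a smaller effect. With 1 library left out at a time 1347 to 2794 passed, and the count fell to 1440 without tet3 mutant 2, 1392 without double mutant 3, and 1361 and 1347 without wildtype 2 and 3.

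**Figure D1:**
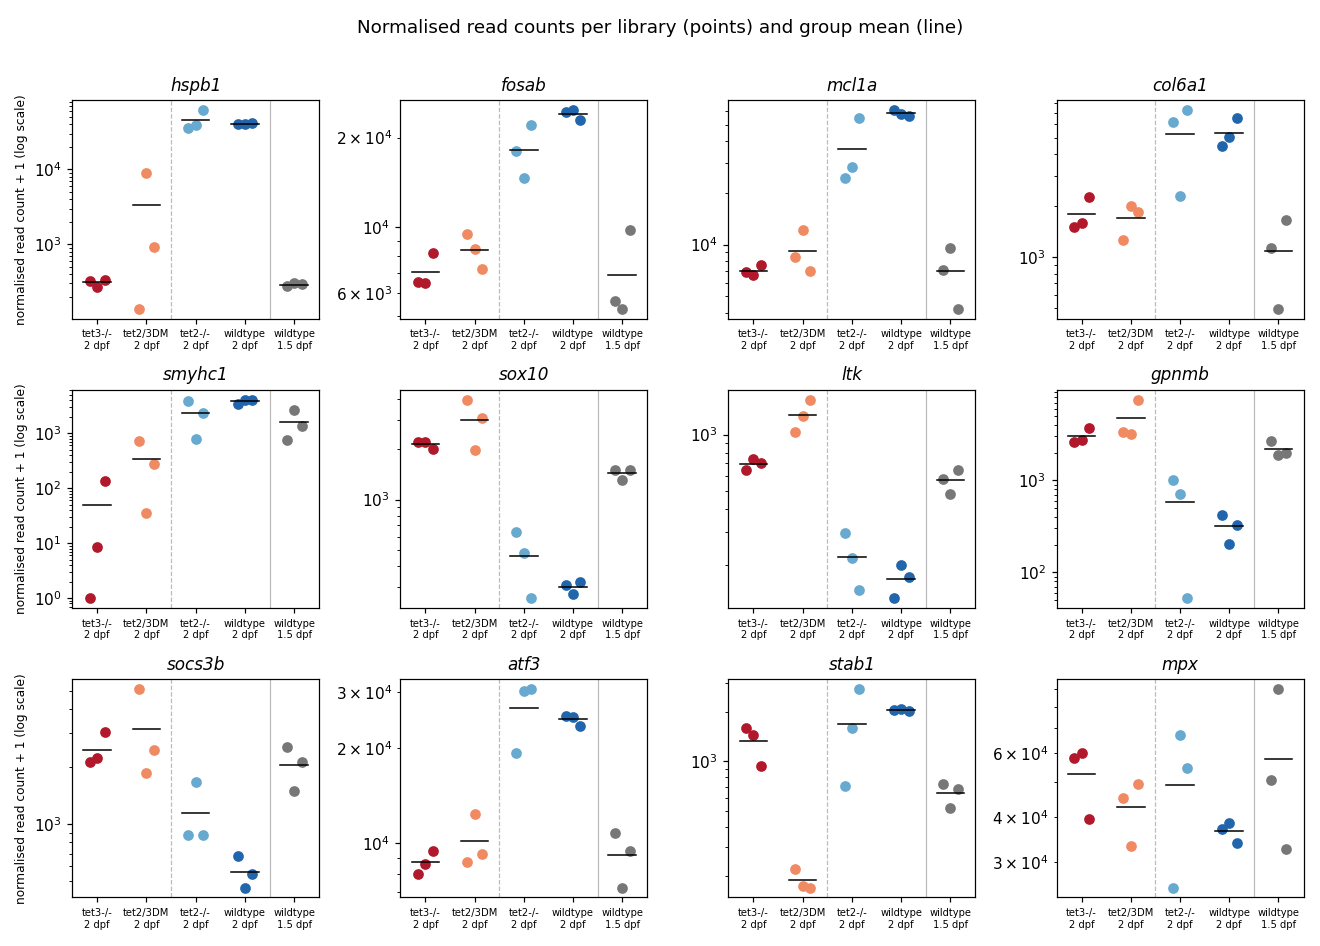
Normalised read counts (value + 1, logarithmic axis) of selected genes in each library, with tet3 mutants and double mutants left of tet2 mutants and wildtype, and wildtype at 1.5 dpf at the right end. Points are libraries, lines are group means of the plotted values, and a dashed line parts libraries without tet3 from those with it. sox10 and ltk are higher in every library without tet3. hspb1, chosen among falls with no overlap, is lower in every one, with double mutant 2 at 9026 standing above the other libraries without tet3. In wildtype at 1.5 dpf mcl1a (4212 to 9603), atf3 (7234 to 10730), fosab (5305 to 9778) and gpnmb (1888 to 2691) lie nearer to the libraries without tet3. There sox10 (1314 to 1509) lies between the sides, socs3b (1492 to 2546) overlaps both, and smyhc1 (756.5 to 2701) overlaps the libraries with tet3.

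Heat-inducible chaperones refold damaged proteins and are switched on together by heat shock factor when a cell is stressed. Of 28 such genes tested, 19 fell and 1 rose, against 6.95% and 6.79% of all genes, and their median difference was -2.43, against -0.027 over all genes. 15 of the 28 did not overlap and were lower without tet3, against 1.91% of all genes. hspb1, a small heat shock protein gene, had 327.6, 268.3 and 332.2 in tet3 mutants and 136.7, 9026 and 925.2 in double mutants, against 36110, 39860 and 62010 in tet2 mutants and 40980, 40910 and 41390 in wildtype. It was chosen as 1 of the 12 largest falls with no overlap, so it was lower in every library without tet3 by choice. Double mutant 2 lay nearest to the libraries with tet3. The difference was -6.24 (SE 0.82, limma adjusted p = 0.0014), and hspb1 had 272.9, 300.7 and 295.4 in wildtype at 1.5 dpf. hsph1, an Hsp110 gene, ran from 236.6 to 24040 with a median of 502.3 without tet3, against 28890 to 73650 with a median of 51890 with tet3 (difference -5.79, adjusted p = 0.0041 by limma). Its highest value without tet3 was again that of double mutant 2, and it did not pass edgeR's test on the recovered reads. bag3, which encodes a co-chaperone, ran from 510 to 13090 without tet3 and from 21560 to 44720 with tet3 (difference -4.49, limma adjusted p = 0.0027). hspb8, serpinh1b, fkbp4 and stip1 fell by 3.54, 1.56, 2.54 and 2.19 on the log2 scale. hsf1, the gene of the heat shock factor itself, was the 1 that rose (difference 0.47, limma adjusted p = 0.035).

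hsp70l and hsp70.3, near-identical copies between which reads may have been split, took 0.299, 0.299 and 0.279% of all normalised counts in tet3 mutants and 0.079, 1.887 and 0.603% in double mutants. They took 3.459, 2.182 and 4.884% in tet2 mutants and 3.523, 4.138 and 3.958% in wildtype. Libraries without tet3 were all below those with tet3, and wildtype at 1.5 dpf had 0.057 to 0.107%. hsp70l alone fell by 3.91 on the log2 scale, and 76.3% of its variance lay between the libraries without and with tet3. A covariate for it therefore overlaps with the tet3 term, and with it 10 genes passed in place of 2189. For the 110 named genes that had passed, the median SE was 0.53 with the covariate and 0.28 without it. Of these, 34 had a difference at least as large in size with the covariate, and the rest a smaller one. A call lost with it is thus by itself no sign of a smaller effect. Over the transcriptome, tet3 loss and the level of heat shock transcripts cannot be told apart in these 12 libraries, and the labels give no sorting day or batch.

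**Figure D2:**
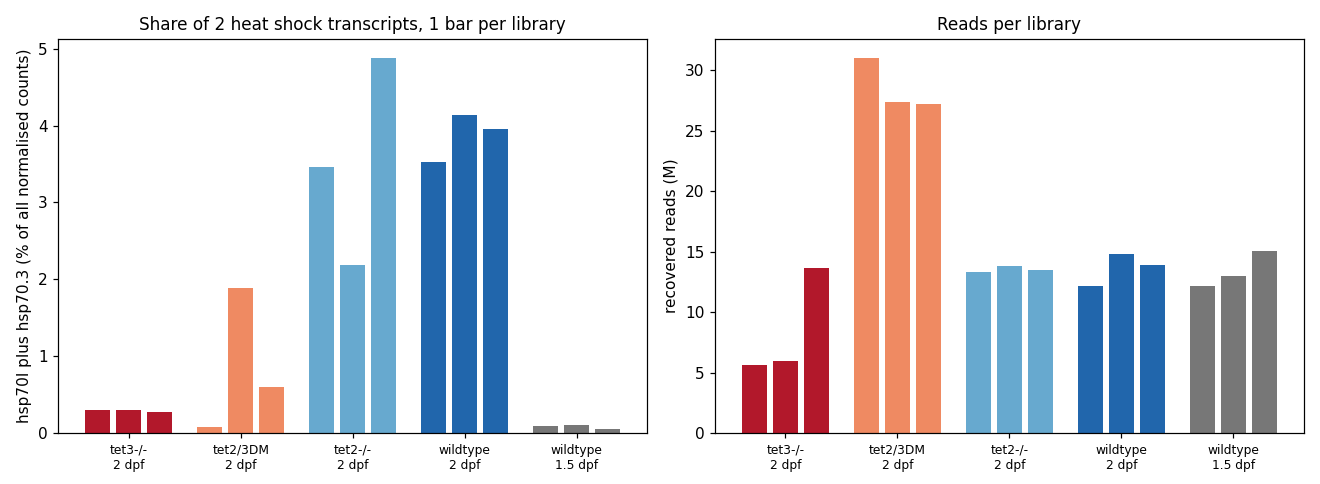
Share of all normalised counts taken by hsp70l and hsp70.3 (percent, left) and recovered reads (M, right), with 1 bar per library and libraries without tet3 left of those with tet3 at 2 dpf. The heat shock share is at most 1.887% in libraries without tet3 and at least 2.182% in those with it, and the 2 shallow libraries, with 5.64 and 5.96 M reads, are tet3 mutants.

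Immediate early genes encode transcription factors and phosphatases that are induced within minutes of a stimulus. Of 33 tested, 10 fell, or 30.3% against 6.95% of all genes, and 20 did not pass. 3 rose, or 9.1%, near the 6.79% of all genes, and the median difference was -0.24. atf3, a stress-induced bZIP factor gene, had 8004, 8605 and 9448 in tet3 mutants and 8722, 12400 and 9245 in double mutants, against 19320, 30330 and 30720 in tet2 mutants and 25290, 25110 and 23390 in wildtype. Its groups did not overlap (difference -1.45, limma adjusted p = 3.7e-05). fosab, an AP-1 subunit gene, had 6554, 6489 and 8198 in tet3 mutants and 9480, 8413 and 7239 in double mutants, against 18010, 14620 and 22020 in tet2 mutants and 24430, 24730 and 22910 in wildtype (difference -1.44, adjusted p = 6.8e-05 by limma). jun and fosb, further AP-1 subunit genes, fell by 1.17 and 1.75 on the log2 scale. dusp1, which encodes a phosphatase that switches off MAP kinases, ran from 3851 to 5270 without tet3 and from 6626 to 12330 with tet3 (difference -1.17, adjusted p = 0.00022 by limma). maff, a small Maf factor gene, ran the other way, from 1471 to 1891 without tet3 and from 687 to 1106 with tet3 (difference 0.91, adjusted p = 0.00059 by limma). The share of hsp70l and hsp70.3 moved with the same libraries. With hsp70l as a covariate none of the 33 passed and the median of the list was -0.51.

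Apoptosis and growth arrest genes gave 8 falls and 2 rises among 36 tested, with a median difference of -0.13. The falls made up 22.2%, against 6.95% of all genes, and the rises 5.6%, near the 6.79% of all genes. mcl1a, a Bcl2 family gene whose product keeps neutrophils alive in mammals, had 6908, 6629 and 7586 in tet3 mutants and 8414, 12140 and 7004 in double mutants, against 24550, 28310 and 55230 in tet2 mutants and 60960, 58010 and 56070 in wildtype. Every library without tet3 was lower (difference -2.48, SE 0.24, limma adjusted p = 5e-05). bcl2l1, a second survival gene of that family, ran from 382.2 to 1498 without tet3 and from 1138 to 2265 with tet3, so the groups overlapped (difference -1.44, adjusted p = 0.0024 by limma). ccng1, a cyclin G gene, fell by 1.15 on the log2 scale with a limma adjusted p of 0.0056, but not with the shallow tet3 libraries left out. cdkn1a, whose product arrests the cell cycle, also fell (difference -1.13, limma adjusted p = 0.029). Its call was lost without tet3 mutant 2, double mutant 1 or 3, or wildtype 1 or 3. Of the 36 genes 5 fell in place of 8 without tet3 mutant 1, tet3 mutant 2 or wildtype 1. With hsp70l as a covariate bcl2l1 had a difference of 0.02.

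Skeletal muscle and heart genes encode contractile proteins and belong to other tissues than blood. Of 34 slow and fast muscle genes tested 12 fell, or 35.3% against 6.95% of all genes, 22 did not pass and none rose. All 34 had a negative difference by limma, with a median of -1.86. The median was -0.53 by edgeR on the recovered reads, which also called 12 lower. smyhc1, the slow myosin heavy chain gene, had 0, 7.522 and 135.1 in tet3 mutants and 723.7, 34 and 276.4 in double mutants, against 3878, 793.5 and 2324 in tet2 mutants and 3455, 4102 and 3959 in wildtype. smyhc1 was chosen as 1 of the 12 largest falls with no overlap, so its groups did not overlap by choice. Double mutant 1 with 723.7 came close to tet2 mutant 2 with 793.5 (difference -5.92, SE 1.38, limma adjusted p = 0.02). myl10, a myosin light chain gene, fell by 5.81 on the log2 scale, with an adjusted p of 0.021 by limma that was lost without wildtype 2 and with the shallow tet3 libraries left out. The summed level of 8 skeletal muscle markers ran from 333.8 to 36680 without tet3, with a median of 1055, and from 3082 to 17200 with tet3, with a median of 11680. The 36680 was double mutant 1, so this sum overlapped. 3 of these 8 markers were at 0 in at least 1 library. With the shallow tet3 libraries left out 7 of the 34 genes fell. Of 16 cardiac genes 9 fell, or 56.2% against 6.95% of all genes, and 1 rose, or 6.2%, near the 6.79% of all genes. Their median was -1.82. The median was -2.07 with tet2 lost and -0.46 with tet2 kept, and the difference between these medians was not tested. Gene by gene, 1 of the 16 passed limma's test of whether the effect differed between tet2 backgrounds, against 0.383% of all genes. Summed over 5 heart markers, the level was 270.8 to 304 in tet3 mutants and 30.03 to 60.37 in double mutants, against 584.3 to 950.4 in tet2 mutants and 267.1 to 479.6 in wildtype. The sums of tet3 mutants overlapped those of wildtype, while double mutants were all below tet2 mutants. nppa, the atrial natriuretic peptide gene, ran from 0 to 2.94 without tet3 and from 14.65 to 123.6 with tet3 (difference -4.37, adjusted p = 0.002 by limma). actc1a, a cardiac actin gene, ran from 32.3 to 220.5 without tet3 and from 298.8 to 1125 with tet3 (difference -2.93, limma adjusted p = 0.00078). The part of muscle and heart RNA in the sorts in these results was not tested.

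Pigment cells of zebrafish arise from the neural crest, which sox10 marks. Of 24 pigment cell and neural crest genes tested, 9 rose, none fell and 7 did not overlap and were higher, against 6.79% and 2.48% of all genes, with a median of 1.16. sox10, the neural crest transcription factor gene, had 2203, 2222 and 1994 in tet3 mutants and 3970, 1992 and 3067 in double mutants, against 640.7, 480.6 and 255.9 in tet2 mutants and 305.4, 270.4 and 318.2 in wildtype. Every library without tet3 was above every library with it (difference 2.80, SE 0.21, limma adjusted p = 1.2e-05). ltk, the kinase gene that specifies iridophores, had 641.9, 734.7 and 703.7 in tet3 mutants and 1029, 1260 and 1542 in double mutants, against 296.4, 217.3 and 145.3 in tet2 mutants and 131.5, 198.3 and 172.1 in wildtype (difference 2.32, SE 0.19, adjusted p = 1.5e-05 by limma). gpr143, trpm1b and slc45a2 are melanophore genes. gpr143 ran from 145.4 to 461.8 without tet3 and from 16.72 to 102 with tet3, and slc45a2 ran from 150.4 to 847.3 without tet3 and from 18 to 298.8 with tet3, where it overlapped. ednrba, an endothelin receptor gene, ran from 92.46 to 438.5 without tet3 and from 0 to 58.79 with tet3 (difference 4.38, adjusted p = 0.0038 by limma). The purine synthesis genes gart, paics and atic, whose products feed pigment cells, rose by 1.15, 1.17 and 1.1 on the log2 scale. mitfa, the master factor gene of melanophores, had a difference of 0.38 and did not pass (adjusted p = 0.5 by limma).

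The summed level of 7 pigment cell and neural crest markers ran from 2951 to 8278 without tet3 and from 546.6 to 3811 with tet3, and the 3811 was tet2 mutant 1. It was 4197 to 4771 in wildtype at 1.5 dpf, within the range of the libraries without tet3. None of these markers was at 0 in any library. With the shallow tet3 libraries left out 9 of the 24 genes rose, without tet2 mutant 1 15 rose, and with hsp70l as a covariate 1 did, with a median of 0.74. The part of pigment cells in the sort in these differences was not tested.

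**Figure D3:**
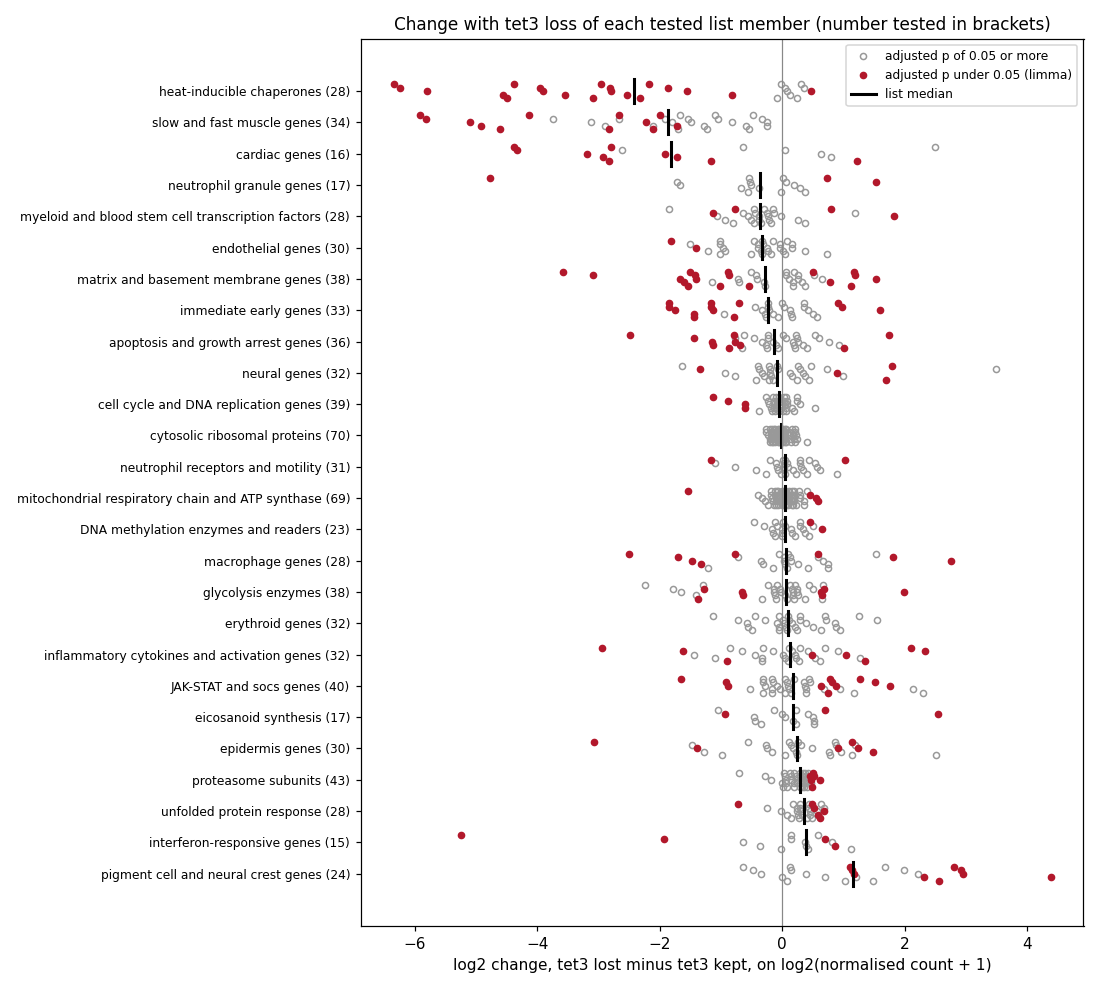
Log2 differences between libraries without and with tet3 (horizontal axis), adjusted for tet2 genotype, for each tested member of 26 gene lists (points, filled where they passed) with the list medians (bars). Heat-inducible chaperones, muscle and cardiac genes have medians of -2.43, -1.86 and -1.82, and pigment cell and neural crest genes have a median of 1.16, against -0.027 over all genes.

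The 12 largest rises with no overlap were led by ocstamp, a gene that acts in osteoclast fusion in mammals. It had 58.12, 92.77 and 61.93 in tet3 mutants and 186.2, 48.73 and 194.4 in double mutants, against 0, 0 and 2.572 in tet2 mutants and 0, 4.507 and 11.87 in wildtype (difference 5.20, SE 0.75, limma adjusted p = 0.00061). sox8a, a SoxE factor gene related to sox10, ran from 160.2 to 373.6 without tet3 and from 9.002 to 37.19 with tet3 (difference 3.69, adjusted p = 3.7e-05 by limma), while it was 6.509 to 25.86 in wildtype at 1.5 dpf. gpnmb, a pigment cell and macrophage gene, had 2586, 2736 and 3715 in tet3 mutants and 3358, 3222 and 7541 in double mutants, against 1001, 709.7 and 51.44 in tet2 mutants and 424.1, 200.6 and 325.3 in wildtype. Libraries with tet3 were all lower, but tet2 mutant 3 stood apart from the other tet2 mutants (difference 3.50, adjusted p = 0.0058 by limma). defbl1, a defensin gene, ran from 607.6 to 2253 without tet3 and from 18 to 244.4 with tet3 (difference 3.63, limma adjusted p = 0.0016). mmp30, a matrix metalloproteinase gene, ran from 103.9 to 183 without tet3 and from 3.543 to 22.62 with tet3 (difference 3.90, limma adjusted p = 9.5e-05). In wildtype at 1.5 dpf ocstamp was 15.15 to 84.62, mmp30 10.35 to 78.11, defbl1 460.1 to 1137 and gpnmb 1888 to 2691. cyp4t8, tgfa, p2rx3b, tmem179b, s100b, ednrba and a copy of PRTFDC1 (1 of many) made up the 12.

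Among the 12 largest falls with no overlap, hspb1, hsph1, hspb11 and a copy of HSPA8 (1 of many) are chaperone genes. Of the same 12, smyhc1, myl10 and tnnc1b are muscle genes. Counts of the HSPA8 copy may be shared with related genes. isg15, a ubiquitin-like gene induced by interferon, had 0, 0 and 10.13 in tet3 mutants and 9.309, 71.4 and 31.78 in double mutants, against 158.4, 213.7 and 119.6 in tet2 mutants and 650.3, 563.4 and 542.5 in wildtype. By the rule of choice it was lower in every library without tet3 (difference -5.25, limma adjusted p = 0.0051). CT583662.1, for which the files give only a clone-based name, was at 0 in all 6 libraries without tet3 and averaged 60.0 with tet3, so it was at least 15.3-fold lower, against a mean floor of 3 reads per library worth 3.93. ankrd1b, a gene related to a mammalian ankyrin repeat gene of stressed muscle, had 15.85, 10.03 and 54.05 in tet3 mutants and 24.01, 0 and 2.648 in double mutants, against 285.6, 68.49 and 236.6 in tet2 mutants and 410, 340.3 and 349 in wildtype (difference -4.65, limma adjusted p = 0.00082). mss51 and ric8a fell by 5.19 and 4.61 on the log2 scale. In wildtype at 1.5 dpf isg15 was 9.113 to 14.2, ankrd1b 24.62 to 27.34, mss51 10.41 to 27.46 and ric8a 0 to 18.94. The muscle genes smyhc1, myl10 and tnnc1b were 756.5 to 2701, 386.7 to 1211 and 128 to 442.6 there.

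Matrix and basement membrane genes gave 12 falls (31.6%) and 6 rises (15.8%) among 38, against 6.95% and 6.79% of all genes. The median was -0.29. col6a1 and col6a2, genes for collagen VI chains, ran from 1266 to 2250 and from 901 to 1421 without tet3, against 2266 to 7279 and 1426 to 5112 with tet3. Neither overlapped, and they fell by 1.54 and 1.67 on the log2 scale with limma adjusted p-values of 0.0015 and 0.0018. lama1, a laminin gene, ran from 545 to 1271 without tet3 and from 323.7 to 513.8 with tet3 (difference 1.12, adjusted p = 0.0016 by limma). The members that rose were lama1, mmp9, col18a1, fn1b, nid1b and lamc1, of which mmp9 encodes a granule enzyme of neutrophils. The count of falls depended on single libraries, with 7 without tet3 mutant 2, tet2 mutant 3 or wildtype 2, and 5 without wildtype 3.

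Cytokine signalling genes moved in part. Of 40 JAK-STAT and socs genes tested, 8 rose, or 20% against 6.79% of all genes, and the median was 0.17. 3 fell, or 7.5%, near the 6.95% of all genes. socs3b, which encodes a feedback inhibitor of Jak kinases, had 2116, 2219 and 3032 in tet3 mutants and 5114, 1855 and 2456 in double mutants, against 874.7, 1658 and 870.6 in tet2 mutants and 678.6, 463.1 and 542.5 in wildtype. The lowest value without tet3, 1855, was above the highest with it, 1658, in tet2 mutant 2. The difference was 1.76 (SE 0.25, limma adjusted p = 0.00074), and it was 2.13 with tet2 kept and 1.40 with tet2 lost. With hsp70l as a covariate the difference of socs3b was 0.38 and did not pass. socs9, a relative, ran from 89.82 to 181.3 without tet3 and from 32.68 to 86.2 with tet3 (difference 1.27, adjusted p = 0.0062 by limma). stat3, the transcription factor gene of this pathway, ran from 1045 to 1383 without tet3 and from 398.3 to 930.5 with tet3 (difference 0.81, adjusted p = 0.0084 by limma). il6st, the shared receptor chain gene, and jak2a also rose, by 0.87 and 0.63 on the log2 scale. jak3, whose product serves lymphoid cytokine receptors in mammals, fell by 1.65 on the log2 scale (limma adjusted p = 0.0017), though its groups overlapped. Its effect was -0.88 with tet2 kept and -2.42 with tet2 lost. This difference did not pass limma's interaction test (adjusted p = 0.12). With the 2 shallow tet3 libraries left out, 2 of the 40 rose and 1 fell, and stat3 did not pass. Without tet2 mutant 2, 13 rose.

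Of 32 inflammatory cytokine and activation genes, 5 rose (15.6%) and 3 fell (9.4%), with a median of 0.13. Of 15 interferon-responsive genes 2 rose and 2 fell (13.3% each). Of all genes 6.79% rose and 6.95% fell. Without tet2 mutant 2, 8 of the 32 rose, and without tet3 mutant 3, tet2 mutant 3 or any 1 wildtype library 1 fell. tnfaip2b, a gene induced by tumour necrosis factor, ran from 174.4 to 516.9 without tet3 and from 45.59 to 101.6 with tet3 (difference 2.1, limma adjusted p = 0.0002). nfkb2, an NF-kappa B subunit gene, ran from 993.5 to 1574 without tet3 and from 369.5 to 845.5 with tet3 (difference 1.04, limma adjusted p = 0.0041), but it did not pass with the shallow tet3 libraries left out. irg1, which makes itaconate in activated phagocytes, had 29490, 28940 and 30540 in tet3 mutants and 12230, 9335 and 8544 in double mutants, against 1005, 12980 and 4192 in tet2 mutants and 3352, 3403 and 2570 in wildtype. tet3 mutants were highest, and tet2 mutant 2 was above all 3 double mutants (difference 2.33, adjusted p = 0.02 by limma). nfkbiaa, the gene of the inhibitor that holds NF-kappa B in the cytoplasm, fell by 1.62 on the log2 scale, with a limma adjusted p of 0.0028. il1b, tnfa and il6, the classical cytokine genes, had average differences of -1.11, -0.85 and 0.27. Their limma adjusted p-values were 0.2, 0.21 and 0.91. The effect on il6 was 3.5 with tet2 kept and -2.955 with tet2 lost. This difference between tet2 backgrounds passed limma's interaction test (adjusted p = 0.029). tet2 mutant 2, with 3642, stood above the other tet2 mutants, with 267.6 and 556.9. Of the 32 genes 2 passed the interaction test, against 0.383% of all genes.

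The defining enzymes of neutrophils did not pass in the main fit. Under 28 alternative settings lyz passed in 3 and mpx in 1. mpx, the myeloperoxidase gene behind the sort, had 58190, 59740 and 39380 in tet3 mutants and 45100, 33300 and 49240 in double mutants, against 25590, 66960 and 54460 in tet2 mutants and 37010, 38570 and 33870 in wildtype. Its groups overlapped (difference 0.19, limma adjusted p = 0.61). lyz, the lysozyme gene, ran from 71690 to 93900 without tet3 and from 70380 to 178900 with tet3 (difference -0.56, adjusted p = 0.06 by limma). Of 17 granule genes 2 rose and 1 fell, or 11.8% and 5.9%, against 6.79% and 6.95% of all genes. Of these, s100a10b lost its call in 9 of the 12 fits that left out 1 library and pglyrp6 in 10. DESeq2 called 2 of the 17 higher and 6 lower. The median of the list was -0.37, and 0 with quantile normalization. By background it was 0.06 with tet2 kept and -0.69 with tet2 lost, and the difference between these medians was not tested. Of the 17 genes 2 passed limma's interaction test, against 0.383% of all genes. mmp9, the gelatinase gene, had 5421, 5802 and 5207 in tet3 mutants and 12440, 3483 and 9207 in double mutants, against 1097, 2227 and 1791 in tet2 mutants and 3178, 3182 and 2590 in wildtype, with no overlap (difference 1.52, limma adjusted p = 0.0071). Of 31 receptor and motility genes 1 rose and 1 fell, or 3.2% each, below the shares of all genes. wasb, a gene for a WASp family actin regulator, fell by 1.17 on the log2 scale with a limma adjusted p of 0.002, though its groups overlapped. Its effect was -0.68 with tet2 kept and -1.66 with tet2 lost. This difference did not pass limma's interaction test (adjusted p = 0.33).

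Macrophage genes gave 3 rises (10.7%) and 5 falls (17.9%) among 28, against 6.79% and 6.95% of all genes. The median was 0.06. grn1, a granulin gene, ran from 230.1 to 470.8 without tet3 and from 30 to 101.6 with tet3 (difference 2.76, limma adjusted p = 0.00011). marco, a scavenger receptor gene, ran from 822.3 to 2438 without tet3 and from 1933 to 4550 with tet3 (difference -1.32, adjusted p = 0.0018 by limma). irf8, the factor gene that turns myeloid progenitors to macrophages, fell by 0.77 on the log2 scale (limma adjusted p = 0.035), and it lost its call in 10 of the 12 fits that left out 1 library each, all but those without double mutant 1 and tet2 mutant 1. Of 28 myeloid and blood stem cell transcription factor genes, 2 rose and 2 fell, or 7.1% each, near the shares of all genes. Their median was -0.37, against -0.027 over all genes, and 23 had a negative and 5 a positive difference. mafba, a macrophage factor gene, fell by 1.13 on the log2 scale with a limma adjusted p of 0.00074. Beside these, 5 of 10 macrophage markers fell. Their summed level was 30290 to 33350 in tet3 mutants, against 31500 to 33840 in wildtype, so these overlapped. It was 16440 to 20520 in double mutants, against 14060, 32850 and 32430 in tet2 mutants. Of the 28 macrophage genes 3 passed limma's test of whether the effect differed between tet2 backgrounds, against 0.383% of all genes. The 5 falls among the 28 genes were 2 or 3 without any 1 of tet3 mutants 2 and 3, double mutants 2 and 3, tet2 mutants 2 and 3, and wildtype 1 and 3.

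tet3 loss was measured in each tet2 background with separate libraries, as tet3 mutants minus wildtype with tet2 kept and as double minus tet2 mutants with tet2 lost. All 2189 genes that passed had the same sign in both, which a test of the average favours. The correlation of the effects across all 15932 genes was 0.503 (Pearson) and 0.466 (Spearman), a description across genes that are not independent. The difference of the effects was tested for each gene, and 61 genes passed limma's test, or 0.383% of those tested. In 54 of the 61 the effect of tet3 loss was lower with tet2 lost than with tet2 kept. 12 of the 61 also passed for the average effect. With 1 library left out at a time 15 to 270 genes passed, the lowest count without tet3 mutant 2 and the highest without tet2 mutant 1.

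**Figure D4:**
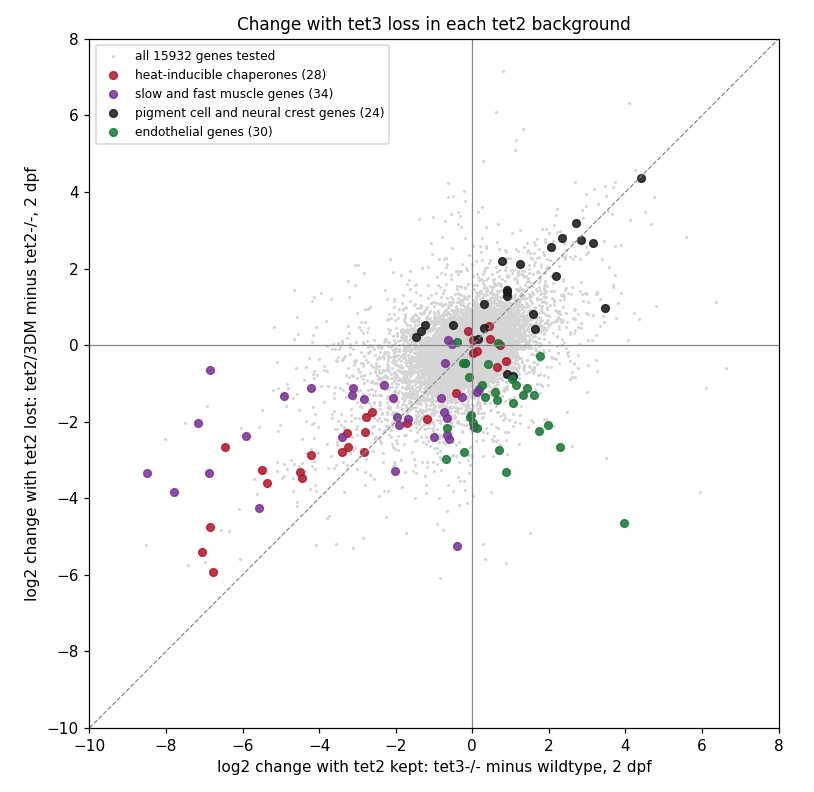
Log2 effect of tet3 loss with tet2 kept (horizontal) and with tet2 lost (vertical), for each gene tested (grey points), with 4 gene lists in colour and a dashed line of equal effects. Effects correlate at 0.503 across genes, and 21 of 30 endothelial genes lie above 0 on the horizontal axis while 28 lie below 0 on the vertical axis.

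Endothelial genes line blood and lymph vessels. Of 30 endothelial genes tested, 9 passed the test of the difference between backgrounds, against 0.383% of all genes. With tet2 kept 21 of the 30 had a positive effect and the median was 0.62, and with tet2 lost 28 had a negative effect and the median was -1.39. cdh5, the vascular cadherin gene, had 1310, 1269 and 629.4 in tet3 mutants and 22.54, 96.9 and 107 in double mutants, against 296.4, 477.1 and 455.3 in tet2 mutants and 135.7, 300.9 and 210.1 in wildtype. It was thus higher than wildtype in every tet3 mutant and lower than tet2 mutants in every double mutant, and the average effect was -0.19 (adjusted p = 0.91 by limma). lyve1a, a lymphatic receptor gene, had 1434, 1537 and 665.5 in tet3 mutants and 0.4899, 22.1 and 4.237 in double mutants, against 126, 336.5 and 65.59 in tet2 mutants and 66.44, 52.96 and 103.3 in wildtype. Its effect was 3.97 with tet2 kept and -4.65 with tet2 lost, and the adjusted p of the difference was 0.0068 by limma. Of the list 2 members fell on average, or 6.7%, near the 6.95% of all genes. They were stab1, a scavenger receptor gene (difference -1.82, limma adjusted p = 0.014), and vsg1 (difference -1.41, limma adjusted p = 0.013). Both overlapped between libraries without and with tet3. The effect on stab1 was -0.67 with tet2 kept and -2.97 with tet2 lost, and that on vsg1 was -0.65 and -2.18. Neither difference between backgrounds passed limma's interaction test (adjusted p = 0.095 and 0.37). Summed over 9 endothelial markers, the level was 6293 to 8658 in tet3 mutants, against 7248 to 7929 in wildtype, and 1775 to 2400 in double mutants, against 4862 to 11380 in tet2 mutants. The sums of double mutants were all lower, and those of tet3 mutants overlapped wildtype. The part of vascular cells in these differences was not tested.

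Of 70 cytosolic ribosomal protein genes none passed limma's test, with a median of -0.03. 2 of the 70 had an unadjusted p under 0.05, against 4477 of all 15932 genes. edgeR and DESeq2 called none of the 70, and quantile normalization called 8 higher with a median of 0.11. Of 69 respiratory chain and ATP synthase genes 3 rose and 1 fell, or 4.3% and 1.4%, below the 6.79% and 6.95% of all genes, with a median of 0.04. The 3 rises were 0 without double mutant 3, tet2 mutant 3 or wildtype 3, and 1 without any 1 of the tet3 mutants, double mutant 1, tet2 mutant 1 or wildtype 2. Of 43 proteasome subunit genes 6 rose, or 14% against 6.79% of all genes, and none fell, with a median of 0.29. The 6 were led by psmd11b, a lid subunit gene (difference 0.62, adjusted p = 0.011 by limma). None of the 43 passed with the shallow tet3 libraries left out, 3 rose without tet3 mutant 2, double mutant 3, tet2 mutant 3 or wildtype 2, and 15 rose without double mutant 2. Of 28 unfolded protein response genes 5 rose (17.9%) and 1 fell (3.6%), with a median of 0.36. The 5 rises were 2 or 3 without any 1 of the tet3 mutants, double mutant 1 or any 1 wildtype library, and 10 without tet2 mutant 2 or with library weights. None passed with the shallow tet3 libraries left out. atf4b, a factor gene of the integrated stress response, rose by 0.68 on the log2 scale, while hspa5, the gene of the main chaperone of the endoplasmic reticulum, fell by 0.72 on the log2 scale. Of 38 glycolysis genes 4 rose and 4 fell, or 10.5% each. The 4 falls were 0 without tet3 mutant 1, double mutant 3 or wildtype 1, 1 or 2 without tet3 mutant 2, tet2 mutant 1 or 3, or wildtype 2 or 3, and the 4 rises were 2 without double mutant 3. Among those that rose was slc2a3b, a glucose transporter gene, at 1903 to 5207 without tet3 and 339.5 to 1700 with tet3 (difference 1.98, adjusted p = 0.0028 by limma). Of 39 cell cycle genes 4 fell and none rose, with a median of -0.06. The share that fell, 10.3%, was near the 6.95% of all genes, and 2 fell without tet3 mutant 2, double mutant 1 or 3, or wildtype 3. ptgis, which makes prostacyclin, ran from 228.4 to 1244 without tet3 and from 44.39 to 159.4 with tet3 (difference 2.54, limma adjusted p = 0.00096). Its list of 17 eicosanoid genes had 2 rises and 1 fall, or 11.8% and 5.9%, against 6.79% and 6.95% of all genes.

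Of 32 erythroid genes none passed by limma, edgeR called none and DESeq2 called 1. 5 of the 32 had an unadjusted p under 0.05 by limma, against 4477 of all 15932 genes. Of 32 neural genes 3 rose and 1 fell, and of 30 epidermis genes 4 rose and 2 fell. The shares were 9.4% and 3.1% for neural genes and 13.3% and 6.7% for epidermis genes, against 6.79% and 6.95% of all genes. Without tet2 mutant 1, 6 neural and 15 epidermis genes rose, and without any 1 of the tet3 mutants, double mutant 3 or any 1 wildtype library 2 epidermis genes rose. cdh1 and epcam, epithelial adhesion genes, rose by 1.14 and 1.24 on the log2 scale, but neither passed with the shallow tet3 libraries left out. These rises were 1.67 and 1.89 with tet2 kept and 0.61 and 0.59 with tet2 lost, differences that did not pass limma's interaction test (adjusted p = 0.46 and 0.41). Summed over 7 epidermis markers, the level was 54290 to 69750 in tet3 mutants, against 21040 to 27850 in wildtype. It was 25770 to 32760 in double mutants, against 83090, 10600 and 11760 in tet2 mutants. her4.1, a Notch target gene of neural progenitors, fell by 1.35 on the log2 scale with a limma adjusted p of 0.0031, while phox2bb, an autonomic neuron factor gene, rose by 1.79 with an adjusted p of 0.016, but not with the shallow tet3 libraries left out. The summed level of 6 neural markers ran from 3626 to 12100 without tet3 and from 2769 to 17770 with tet3, so it overlapped widely.

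**Figure D5:**
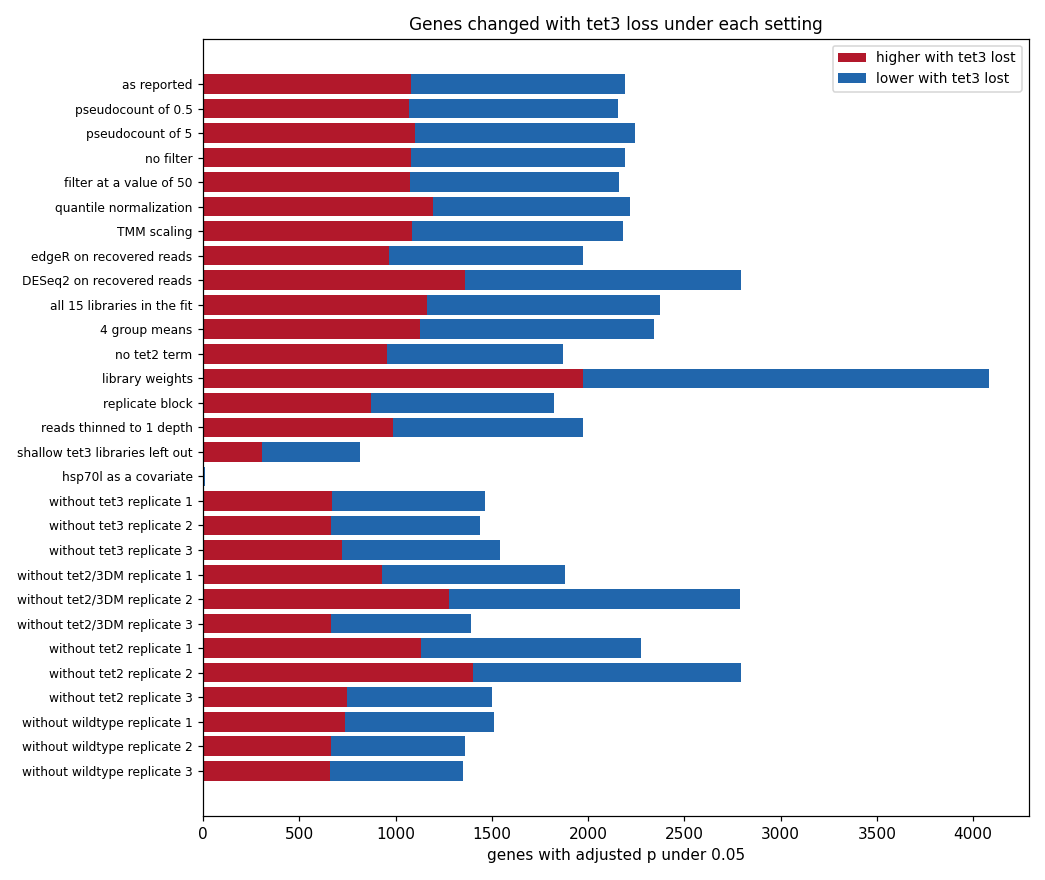
Number of genes that passed for tet3 loss (horizontal axis) as reported, 2189, and under each alternative setting, in bars from 0 split into genes higher and lower without tet3. The smallest counts are 10 with hsp70l as a covariate and 812 with the shallow tet3 libraries left out, and the largest is 4083 with library weights.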

How the data were processed

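Polyadenylated RNA of sorted neutrophils was sequenced from a TruSeq RNA v2 library, per the labels' protocols, a kit that does not mark strand, so a gene and an antisense neighbour are not separated. The submitters' processing notes name TopHat, Cufflinks and DESeq2. For the genome build, the annotation and the counter, the sources used here give no name. The deposited table holds a signal per gene and library, which from its values is a read count divided by the library's size factor: 100% of values were whole reads at a tolerance of 0.01. A floor of 3 reads covers counting error only.

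limma 3.58.1 (R 4.3.3; trend, robust) was fitted to log2(value + 1) of the 12 libraries with terms for tet2 and tet3. Genes needed a value of 10 in 3 libraries, which kept 15932 of 15937. P-values were adjusted by Benjamini-Hochberg, with a threshold of 0.05. A second fit tested the tet2 by tet3 interaction. Recovered whole reads were also tested with edgeR 4.0.16 and DESeq2 1.42.0, and other alternatives changed the pseudocount, filter, scaling, libraries, weights, depth, replicate block and an hsp70l covariate. The steps were tested on simulated data. Groups came from the labels' genotype. 26 gene lists had 851 of 979 entries tested, and the members and lists were chosen with earlier results of these data known. Named genes were tet1, tet2, tet3, socs3b, mpx and lyz, the 12 largest rises and 12 largest falls that passed, did not overlap and averaged at least 50 on the higher side, leaving out clone names by a list of prefixes that does not hold CT, and up to 4 members of each list by smallest p. Other members named in the text, among them those said not to have passed, were chosen after their values were seen. Symbols that spreadsheet software had turned into dates were restored by identifier for 14 of 15. 1 gene is not reported here.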

Additional observations from a re-analysis of the deposited data

Results flagged for a closer look

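The effect of tet3 loss on 2 of the named genes differed between tet2 backgrounds by limma's interaction test. c1qb, a complement gene of macrophages, had effects of -3.06 with tet2 lost and -0.35 with tet2 kept, a difference of -2.71 (adjusted p = 0.035). cxcl18b, a chemokine gene, had effects of 0.42 with tet2 lost and 2.27 with tet2 kept, a difference of -1.86 (adjusted p = 0.029). Each genotype has 3 libraries, so no test for a library that stands apart was made.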

How the results depend on the processing

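The count of genes changed by tet3 loss, 2189 as reported, was within 1.5 times of that under other pseudocounts, filters, scalings, edgeR, DESeq2, all 15 libraries, 4 group means, no tet2 term and thinned reads. It was 4083 with library weights, 812 with the shallow tet3 libraries left out, 10 with hsp70l as a covariate and 1347 to 2794 with 1 library left out. The labels do not say whether replicate numbers pair the libraries. Of 18 correlations of deviations between libraries of the same number, 2 were over 0.1 (range -0.222 to 0.189). With 3 libraries per group this cannot settle whether they are paired, and with a replicate block 1822 genes passed. The 61 genes whose effect differed between tet2 backgrounds were 34 with the block, 254 by DESeq2, 891 with library weights, 2 with the shallow libraries left out (1 tet3 mutant then carries the effect with tet2 kept), 113 with the hsp70l covariate and 15 to 270 with 1 library left out. The hsp70l covariate turned the sign of pglyrp6 (2.65), ccnd1 (0.033), bcl2l1 (0.019), sdha (-0.131), uqcrfs1 (-0.003) and uqcrc2b (-0.092). Of the 115 named genes 110 had passed, and of these only ankrd1b and ltk still passed with that covariate. The call was lost with the sign kept in 102, and the 6 whose sign turned did not pass either. Of the 110, 34 had a difference at least as large in size with the covariate, among them mmp30 (4.66) and smyhc1 (-7.24). The rest had a smaller one, among them socs3b (0.38), hspb1 (-1.62), hsph1 (-0.73) and phox2bb (0.05). The median SE was 0.53 with the covariate and 0.28 without it. With the shallow libraries left out 42 named genes lost their call, in a fit with 1 tet3 mutant that is assumed to vary like the other groups. Values of 2 shallow libraries limit the precision of low genes in tet3 mutants.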
